A study of Mus musculus with 8 samples.

Results

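The nuclear genes for subunits of respiratory complexes I, III, IV and V were examined in 8 RNA sequencing libraries of mouse dorsal root ganglia. Genes were taken by symbol (Nduf followed by a, b, c, s or v and a number, Uqcr, Cox4 to Cox8, and Atp5), which gave 81 of the 18560 genes in the deposited table: 39 of complex I, 8 of complex III, 17 of complex IV and 17 of complex V. The 4 WT libraries (WT 1 to WT 4) and the 4 libraries of a conditional knockout of Alyref (cKO 1 to cKO 4) all carry P60 in their genotype label. The labels give no strain, Cre driver, sex or treatment, and do not say whether animals were pooled. Alyref encodes an adaptor that hands mRNA to the nuclear export machinery, and the values are transcript levels in whole tissue, so they do not separate nuclear from cytoplasmic RNA.

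Complexes I, III and IV pass electrons from NADH to oxygen and pump protons out of the mitochondrial matrix, and complex V, ATP synthase, uses the returning protons to make ATP. Most subunits are encoded in the nucleus and imported, while a few core membrane subunits are encoded by mitochondrial DNA, so nuclear and mitochondrial gene expression have to supply the same assemblies. Sensory neurons depend on this pathway to maintain ion gradients along very long axons, and several subunits of complex IV also exist as separate isoforms for muscle, lung, testis or low oxygen. Transcription of the common subunits is known to be driven by the factors NRF1, GABP (a member of the ETS family) and YY1 together with coactivators of the PGC-1 family.

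The promoters of the members are described before their levels. Windows from 250 bases before to 30 bases after the start were read from RefSeq on GRCm38.p6 and searched on both strands. A window was on hand for 66 of the 81 genes, 71 windows in all. The NRF1 motif (GCGC, any base, TGCGC) stood in 15 of the 71 (21.1%), against 4.41% of 32851 windows of all RefSeq promoters. The ETS motif CCGGAAG was also in 15 (21.1% against 8.45%), and the YY1 motif ATGGCGG in 7 (9.86% against 3.1%). At least 1 of these motifs occurred in 32 of the 71 windows (45.1%), against 14.3% of all windows. Motif matches did not overlap each other in the windows of the subunit genes. These shares describe letters, not binding, and their relation to levels in the libraries was not tested.

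Shown first are 3 common subunits whose windows carry a match, in capitals. Atp5b, at chr10:128083057-128083336 on the plus strand, holds the YY1 motif 16 bases after the start. Ndufb4, at chr16:37654339-37654618 on the minus strand, holds the NRF1 motif at 3 places. Cox6b1, at chr7:30626085-30626364 on the minus strand, holds the ETS motif.
Atp5b: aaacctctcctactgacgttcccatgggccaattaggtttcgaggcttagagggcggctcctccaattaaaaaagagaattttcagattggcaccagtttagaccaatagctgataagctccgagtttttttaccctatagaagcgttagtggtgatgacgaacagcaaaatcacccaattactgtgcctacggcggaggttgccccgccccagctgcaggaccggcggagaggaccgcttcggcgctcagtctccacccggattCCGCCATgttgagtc
Ndufb4: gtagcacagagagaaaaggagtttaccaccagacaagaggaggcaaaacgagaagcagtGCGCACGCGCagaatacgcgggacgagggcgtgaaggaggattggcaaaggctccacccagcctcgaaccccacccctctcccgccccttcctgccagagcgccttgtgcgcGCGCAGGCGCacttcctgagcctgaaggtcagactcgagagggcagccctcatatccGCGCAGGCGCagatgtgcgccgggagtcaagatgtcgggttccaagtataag
Cox6b1: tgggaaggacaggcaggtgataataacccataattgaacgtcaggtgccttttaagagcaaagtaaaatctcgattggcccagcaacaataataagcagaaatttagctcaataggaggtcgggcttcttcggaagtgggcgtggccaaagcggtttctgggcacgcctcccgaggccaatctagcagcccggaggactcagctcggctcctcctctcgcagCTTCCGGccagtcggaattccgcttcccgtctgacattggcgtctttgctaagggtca

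Also shown are a pair of tissue isoforms whose windows carry none of the motifs, the testis form Cox6b2, at chr7:4753065-4753344 on the minus strand, and the heart and skeletal muscle form Cox7a1, at chr7:30183921-30184200 on the plus strand. Cox6b2 is shown because it was the member with separate groups, and Cox7a1 because it followed muscle markers, as described further on. A window without a motif was not particular to such isoforms: in complex IV it was so for 4 of 4 tissue isoforms with a window and for 5 of 8 common forms (Cox5a, Cox5b, Cox7a2, Cox7b and Cox7c).
Cox6b2: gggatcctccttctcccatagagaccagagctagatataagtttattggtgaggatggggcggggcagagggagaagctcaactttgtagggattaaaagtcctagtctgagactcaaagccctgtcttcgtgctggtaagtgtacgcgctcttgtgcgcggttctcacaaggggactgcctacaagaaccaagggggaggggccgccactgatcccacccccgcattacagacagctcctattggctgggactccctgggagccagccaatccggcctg
Cox7a1: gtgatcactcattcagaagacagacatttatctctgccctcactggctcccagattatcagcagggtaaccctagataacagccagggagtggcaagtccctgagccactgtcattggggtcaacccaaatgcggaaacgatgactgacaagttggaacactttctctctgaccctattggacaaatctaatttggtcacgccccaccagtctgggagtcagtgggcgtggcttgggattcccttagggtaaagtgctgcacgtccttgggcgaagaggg

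Before the results, some facts on the libraries bear on them. Totals were 15522915 to 16482614 estimated counts per library, so depth was alike. Alyref itself stood at 49.8, 54.9, 47.9 and 54.5 TPM in WT 1 to WT 4 and at 51.9, 46.3, 49.9 and 48.7 TPM in cKO 1 to cKO 4, so its level did not separate the groups and cKO stands for the label throughout. Tissue markers varied: 15 nociceptor markers summed to 594, 4920, 1694 and 764 TPM in WT and to 987, 1519, 522 and 1137 TPM in cKO, while 12 oligodendrocyte markers summed to 3920 TPM in WT 2 and to between 8804 and 15155 TPM in the other 7. No nociceptor or oligodendrocyte marker was at 0 in all libraries. WT 2 thus stood apart, with the highest nociceptor sum and the lowest oligodendrocyte sum, and the main results are given with and without it. The label calls all 8 libraries ganglia, yet markers of oligodendrocytes, the myelinating glia of brain and spinal cord, were abundant in each.

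Subunit transcripts were abundant and close in level between libraries. TPM values, which are corrected for gene length and depth, summed over the 81 genes to 56352, 60885, 55726 and 54708 in WT 1 to WT 4 and to 57209, 57756, 54913 and 57419 in cKO 1 to cKO 4. WT 2 was the highest, and the groups overlapped. Complex V held the largest sum, 19225 to 22323 TPM, followed by complex I with 16253 to 17911 TPM, complex IV with 14415 to 15552 TPM and complex III with 4767 to 5271 TPM. With genes assigned to complexes by symbol, the same order of the 4 complexes held in each library. Complex I here includes Ndufa4 (2131 to 3091 TPM), which has since been placed in cytochrome c oxidase. Counting Ndufa4 in complex IV instead would put complex IV above complex I in each library.

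Within a complex, mean TPM over the 8 libraries spanned a wide range. Among the members of complexes I, III and V, accessory subunits led, above those that carry redox centres or catalyse. No such comparison was made in complex IV, since genes of mitochondrial DNA were not analysed. In complex I the highest were Ndufa4 (mean 2386 TPM), Ndufa3 (1698 TPM) and Ndufb8 (867.0 TPM). Ndufa4 is named as a complex I subunit and has since been placed in cytochrome c oxidase. Ndufa3 and Ndufb8 are accessory subunits of complex I. Uqcrh, the hinge protein beside cytochrome c1, led complex III with a mean of 1640 TPM, followed by Uqcr10 (1007 TPM) and Uqcrb (657 TPM), which are small subunits of the membrane part. In complex IV the highest were Cox7c (2533 TPM), Cox6b1 (2392 TPM) and Cox4i1 (2353 TPM), all common forms of nuclear subunits around the catalytic core. In complex V they were Atp5md (2608 TPM), also known as Usmg5 or DAPIT, Atp5mpl (1777 TPM) and Atp5k (1726 TPM), small proteins of the membrane part.

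**Figure D1:**
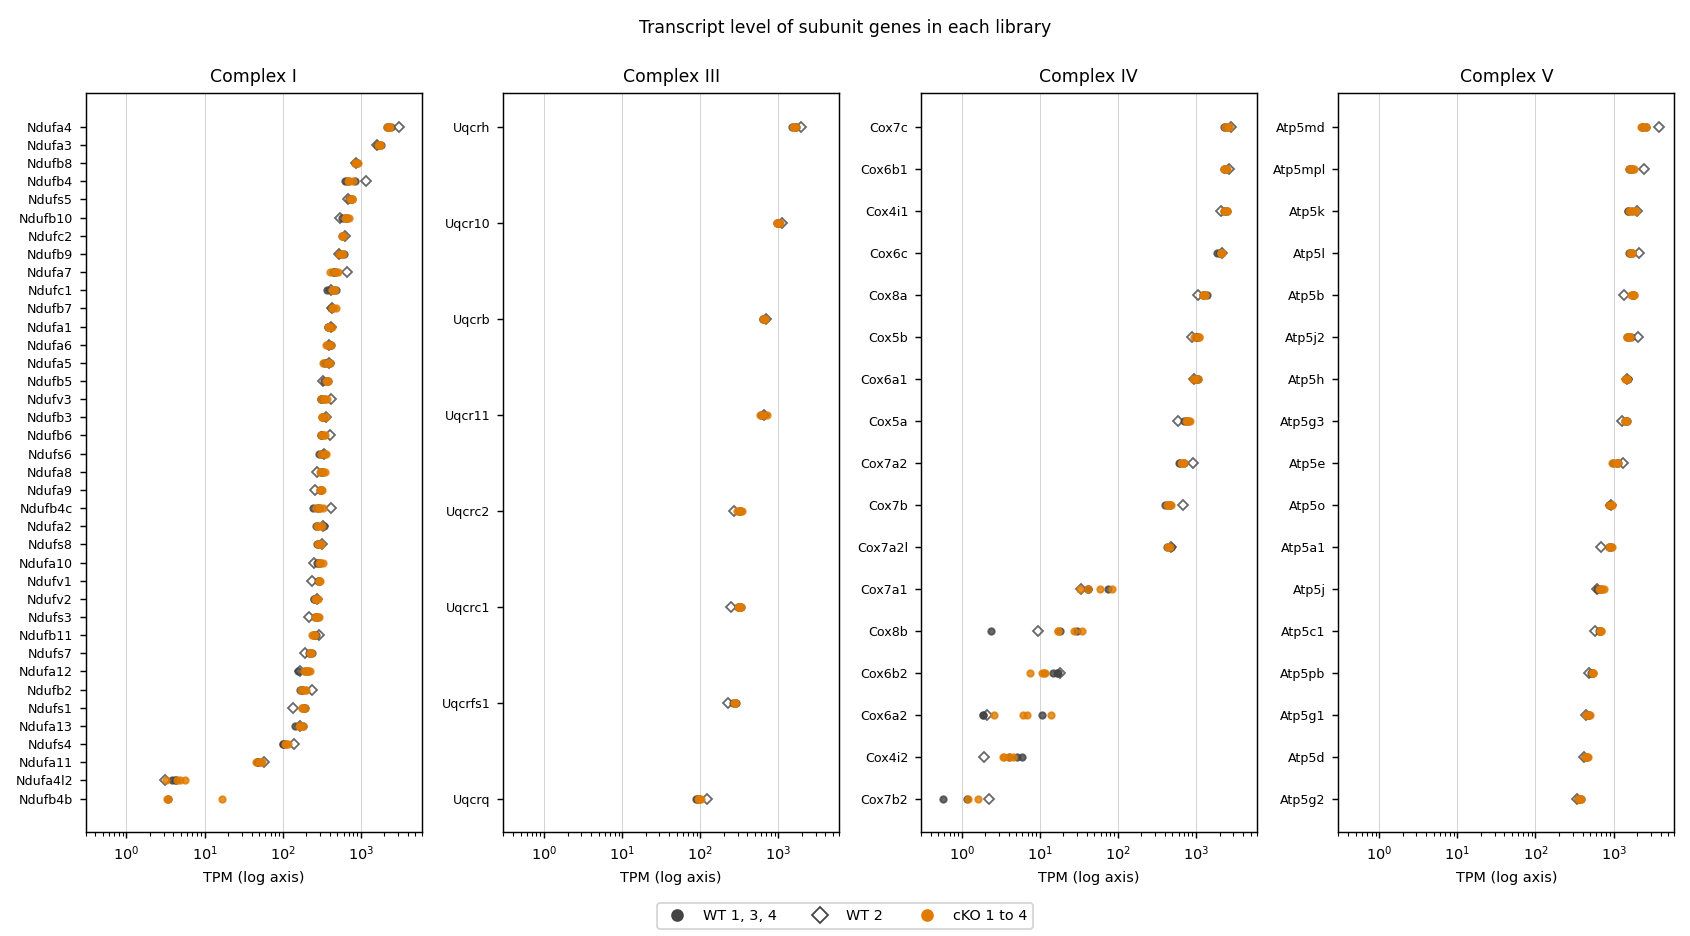
TPM of subunit genes (rows) in every library on a log axis, in a panel per complex. Grey points are WT 1, 3 and 4, open diamonds WT 2 and orange points cKO 1 to 4, and values of 0 are not drawn. Common subunits lie in tight clusters of points, while the tissue isoforms at the low end of complex IV are spread widely.

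The comparison of cKO with WT asked whether the levels of these transcripts differ with the Alyref genotype. Low counts removed Cox7b2, a testis form of a complex IV subunit, Cox8b, a muscle form, and Ndufb4b, a near-identical copy of Ndufb4, and 78 members were tested among 15098 genes. No member had an adjusted p below 0.05, and neither did any other gene (0% of 15098, edgeR quasi-likelihood test with Benjamini-Hochberg adjustment). At an unadjusted p below 0.05 there was 1 member, Cox6b2, where the share over all tested genes was 1.65% (249 genes). The median log2 fold change of the members was 0.01, with 42 of 78 higher in cKO, and the median of all tested genes was −0.00, with 7319 of 15098 higher. By complex the median was 0.02 for complex I (20 of 38 higher), −0.01 for complex III (4 of 8), 0.00 for complex IV (8 of 15) and 0.02 for complex V (10 of 17). With total counts alone 30 of 78 were higher and with TPM values in limma 50 of 78, but these scalings moved the median of all tested genes as well, to −0.03 and 0.03. Above the median of all tested genes in the same fit were 42, 42 and 41 of the 78 members with TMM scaling, total counts alone and TPM values.

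The precision of this comparison was good for common subunits. For 68 of the 78 tested members the 95% interval of the fold change lay inside 1.5-fold in either direction: 35 of 38 in complex I, 8 of 8 in complex III, 10 of 15 in complex IV and 15 of 17 in complex V. The 10 members whose interval reached past that bound were the isoforms Cox4i2, Cox6a2, Cox6b2, Cox7a1 and Ndufa4l2 and the small subunits Cox7b, Ndufa7, Ndufb4, Atp5md and Atp5mpl. Over the 7 libraries other than WT 2, the ratio of the highest to the lowest CPM, the count scaled to the library total, of a member had a median of 1.21, and it was above 1.5 for 7 of the 78.

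**Figure D2:**
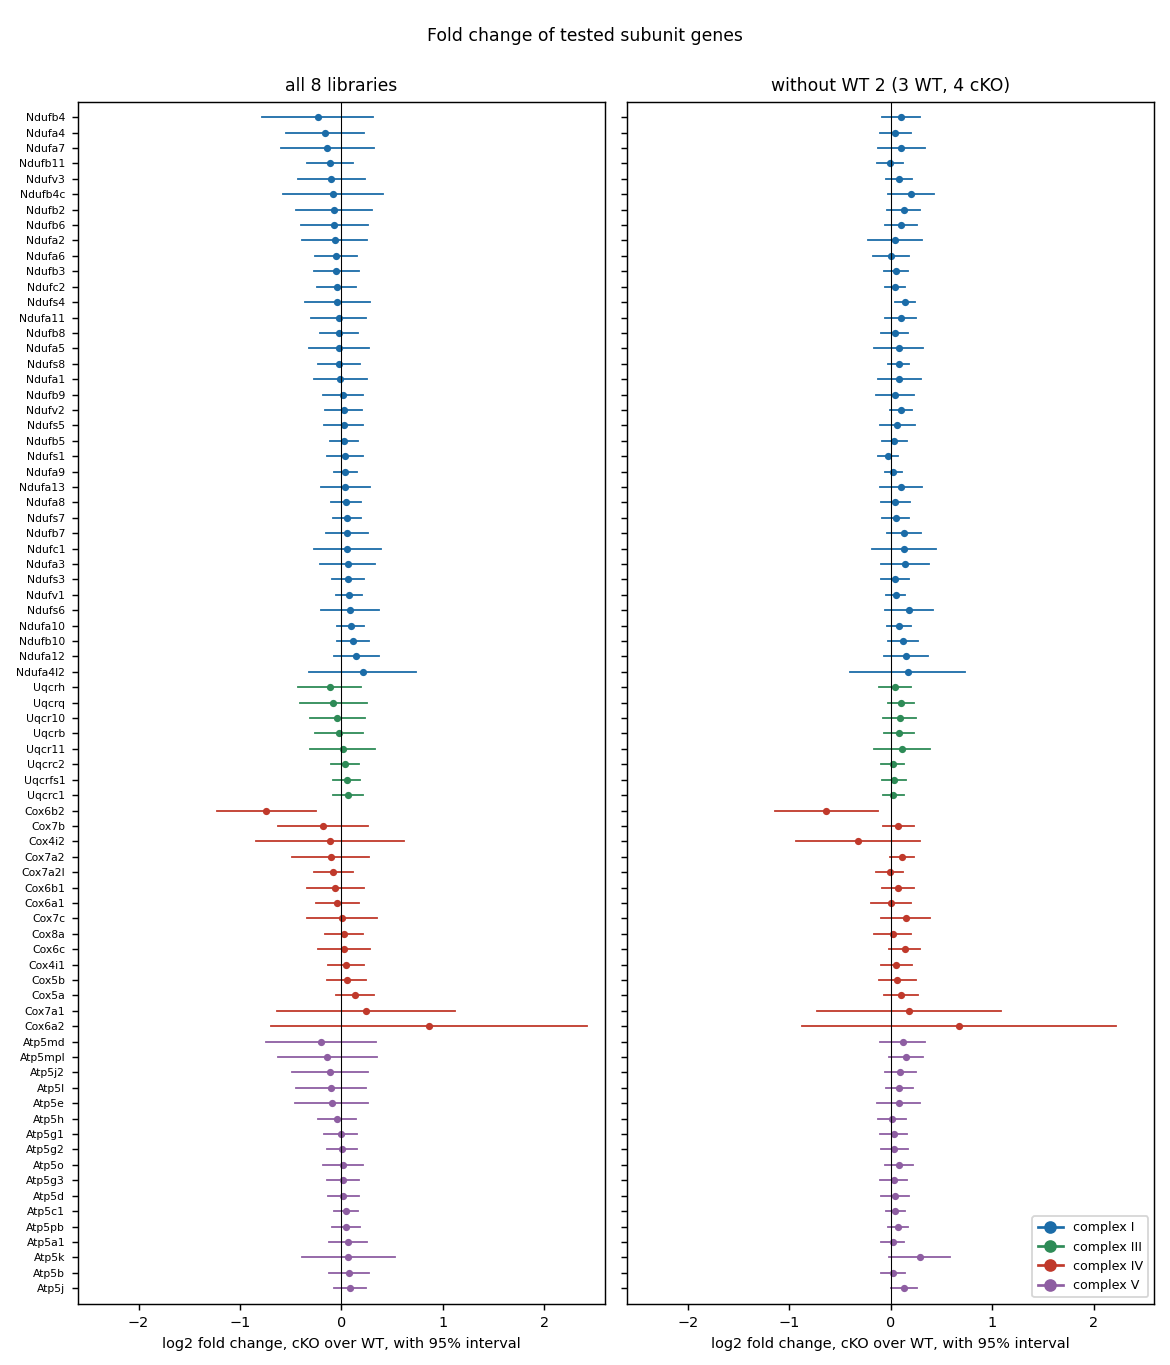
Log2 fold change of cKO over WT with its 95% interval for tested members, coloured by complex, with all libraries on the left and without WT 2 on the right. With all libraries the points scatter around 0 (median 0.01), and without WT 2 most lie slightly above it (median 0.08).

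Core subunits of complex I, among them those with the flavin and iron-sulfur clusters, differed by less than their spread. Ndufs1, the largest iron-sulfur subunit, stood at 194.6, 136.9, 182.9 and 185.7 TPM in WT and at 178.8, 177.4, 193.1 and 180.0 TPM in cKO. Ndufv1, which binds flavin and NADH, stood at 291.3, 234.3, 282.5 and 287.2 TPM in WT and at 291.1, 291.1, 294.1 and 298.2 TPM in cKO. For each gene WT 2 was the lowest library, and the other WT values lay within or below the cKO range apart from the WT 1 value of Ndufs1, which was above it. The log2 fold change was 0.04 ± 0.08 (SE) for Ndufs1 and 0.08 ± 0.06 for Ndufv1 (adjusted p = 0.887 for each, edgeR). Ndufs3 and Ndufs7, which lie on the path to ubiquinone, had log2 fold changes of 0.07 and 0.05. Ndufv2, the partner of Ndufv1, had 0.02. With all libraries none of these core genes passed.

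Ndufs8, a core subunit with a pair of iron-sulfur clusters, is given on CPM, the scale of the fit, where it stood at 71.3, 88.7, 69.1 and 68.2 in WT and at 71.5, 72.4, 72.0 and 77.1 in cKO. On this scale WT 2 lay above all cKO libraries and the remaining WT libraries lay below them, WT 1 by little. On TPM it stood at 279.6, 314.9, 290.8 and 277.3 in WT and at 286.8, 286.6, 306.7 and 301.9 in cKO, so that WT 3 lay within the cKO range and the groups overlapped without WT 2 too. With all libraries the log2 fold change was −0.02 ± 0.09 (SE), and without WT 2 it was 0.08 ± 0.05 (SE; adjusted p = 0.9997, edgeR).

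The accessory subunit Ndufs4, whose loss in mice causes a fatal encephalopathy resembling Leigh syndrome, had the same arrangement on CPM. It stood at 64.2, 96.7, 61.6 and 63.5 CPM in WT and at 68.5, 68.0, 70.8 and 70.7 CPM in cKO. WT 2 was far above every other library, and WT 1, 3 and 4 lay below all 4 cKO libraries. The log2 fold change was −0.04 ± 0.14 (SE) with all libraries and 0.14 ± 0.04 (SE; unadjusted p = 0.0087, adjusted p = 0.9997, edgeR) without WT 2.

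The other accessory subunits of complex I were 13 higher and 16 lower of 29 counting Ndufs4, with a median log2 fold change of −0.02. The members of lowest p among those higher were Ndufb10, Ndufa10 and Ndufa12, with log2 fold changes of 0.11, 0.09 and 0.15. Among those lower they were Ndufb11, Ndufb4 and Ndufa4, with −0.11, −0.23 and −0.16. None of these passed (adjusted p = 0.887 for each, edgeR), and without WT 2 the last 3 values were −0.01, 0.10 and 0.05.

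Complex III differed as little. Uqcrc1, a core protein of the matrix side, stood at 315.1, 248.4, 301.6 and 331.2 TPM in WT and at 327.4, 307.7, 316.8 and 319.9 TPM in cKO, so that WT 2 was the lowest library and the groups overlapped. Uqcrfs1, the Rieske iron-sulfur protein, stood at 287.2, 227.9, 258.9 and 277.1 TPM in WT and at 281.4, 270.2, 279.3 and 277.6 TPM in cKO, again lowest in WT 2. On CPM it was lowest in WT 3, at 128.9, against 130.8 in WT 2. The log2 fold changes of Uqcrc1, Uqcrc2 and Uqcrfs1 were 0.06, 0.04 and 0.05. Of the 5 small subunits 1 was higher and 4 were lower with all libraries, with Uqcrh at −0.11 ± 0.14 (SE), and all 5 were higher without WT 2.

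Catalytic subunits of ATP synthase differed by less than their spread as well. Atp5b, the beta chain that carries the catalytic sites, stood at 1755, 1339, 1746 and 1769 TPM in WT and at 1739, 1687, 1812 and 1820 TPM in cKO. WT 2 was the lowest, and the remaining 7 libraries overlapped between groups. The log2 fold change was 0.07 ± 0.09 (SE) for Atp5b, 0.07 ± 0.08 for the alpha chain Atp5a1 and 0.04 ± 0.05 for the gamma chain Atp5c1 (adjusted p = 0.887 for each, edgeR). The 3 genes for the c ring, Atp5g1, Atp5g2 and Atp5g3, had log2 fold changes of −0.01, 0.00 and 0.02. In the stalk, Atp5j had 0.09 ± 0.07 (SE), the member of complex V with the lowest p.

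Small membrane subunits of ATP synthase had the reverse arrangement in WT 2. Atp5md stood at 2344, 3783, 2619 and 2330 TPM in WT and at 2601, 2627, 2241 and 2315 TPM in cKO. Atp5mpl stood at 1590, 2478, 1699 and 1604 TPM in WT and at 1746, 1834, 1670 and 1597 TPM in cKO. WT 2 was the highest library for each, and without it the groups overlapped. The log2 fold change of Atp5md was −0.20 ± 0.24 (SE) with all libraries and 0.12 ± 0.10 without WT 2, and that of Atp5mpl was −0.14 ± 0.21 and 0.15 ± 0.07.

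Common subunits of complex IV repeated both arrangements. Cox7b stood at 441.4, 674.8, 470.0 and 399.4 TPM in WT and at 462.0, 471.7, 424.3 and 453.2 TPM in cKO. Cox5a, which stands on the matrix side, stood at 788.7, 585.8, 707.8 and 736.1 TPM in WT and at 787.1, 761.3, 745.8 and 831.4 TPM in cKO. WT 2 was thus the highest library for Cox7b and the lowest for Cox5a. The log2 fold changes were −0.18 ± 0.19 (SE) and 0.13 ± 0.08 (adjusted p = 0.887 for each, edgeR). Cox4i1, the common form of subunit 4, had 0.04 ± 0.08, and Cox7a2l, a factor of supercomplex assembly, had −0.08 ± 0.08.

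Members shared their position across libraries. On log2 CPM, WT 2 was the highest of the 8 libraries for 44 of the 78 tested members and the lowest for 10. WT 3 was the lowest for 38 and cKO 3 for 19. Of all 15098 tested genes, WT 2 was the highest library for 5665 and the lowest for 5552. WT 3 was the lowest for 1064 of all tested genes and cKO 3 for 1697. The median difference of the members from their own mean of 8 was 0.03, 0.18, −0.13 and −0.07 in WT 1 to WT 4 and 0.04, 0.00, −0.11 and 0.06 in cKO 1 to cKO 4. The same median over all tested genes lay between 0.00 and 0.01 in each library. WT 3, WT 4 and cKO 3 were therefore low, with 4, 14 and 14 of the 78 members above their mean. Of all 15098 tested genes, 7937, 7906 and 7828 were above their mean there.

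Leaving out WT 2, the lowest and the highest library were shared by all 4 complexes, while the order between them differed. Measured from the mean of 7 libraries, the medians of complex I were 0.05, −0.10 and −0.06 in WT 1, 3 and 4 and 0.06, 0.03, −0.08 and 0.08 in cKO 1 to 4. Complex V had 0.03, −0.10 and −0.03 in WT and 0.06, 0.04, −0.06 and 0.07 in cKO. As in these, WT 3 was the lowest library and cKO 4 the highest in complexes III and IV. Of the 78 members, 71 were above their mean of 7 in cKO 4 and 6 were in WT 3. Of all 15098 tested genes, 7607 and 7670 were.

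**Figure D3:**
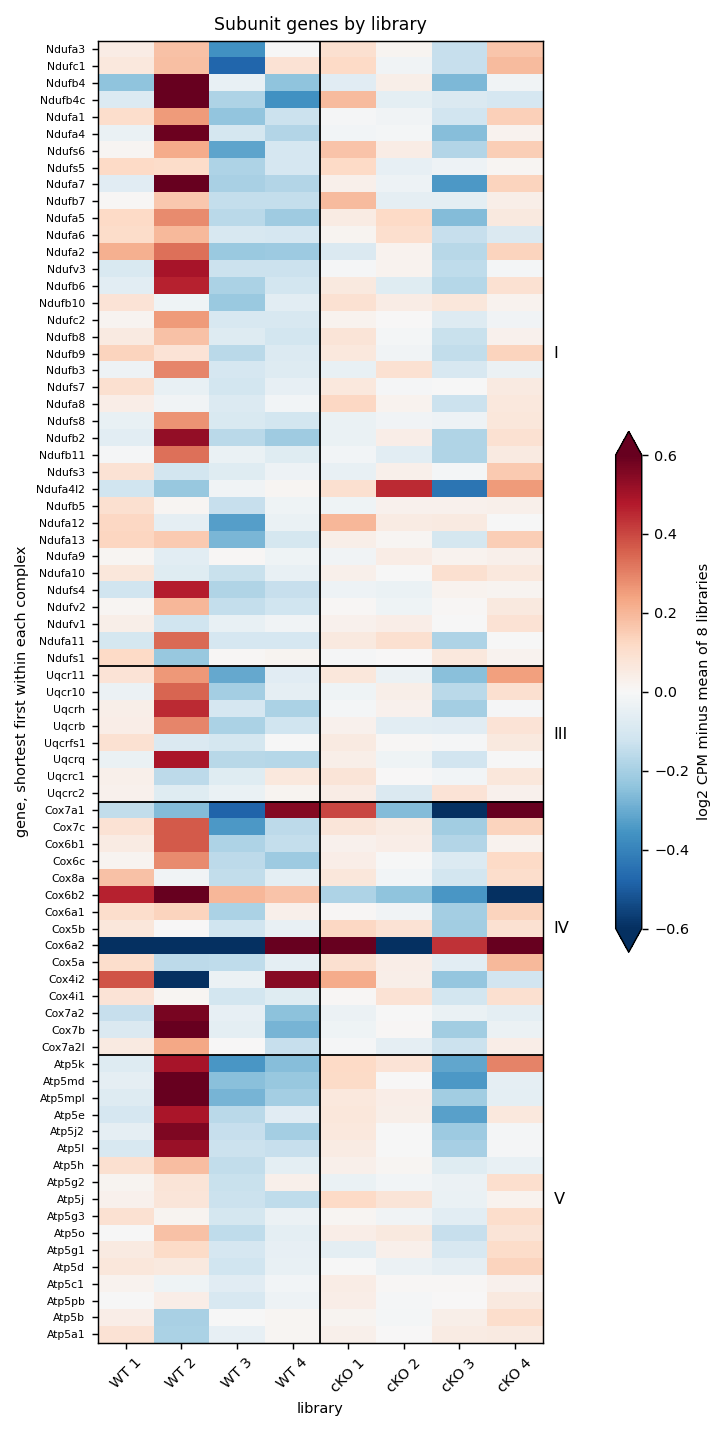
Log2 CPM of tested members, each minus its mean over the 8 libraries (colour), with genes in rows, ordered by relative length within each complex, and libraries in columns. Columns WT 3, WT 4 and cKO 3 are mostly below the mean, and column WT 2 is mixed, with short genes mostly high and long genes divided between high and low.

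Without WT 2 most members were slightly higher in cKO. The log2 fold change was above 0 for 73 of 79 tested members, with a median of 0.08, while all 15119 tested genes had a median of 0.00 and 50.1% above 0. Other genes as short had positive medians too: for the shortest, middle and longest 26 members, by the relative length defined further on, the medians were 0.10, 0.05 and 0.04, and for other genes in the same ranges of length 0.07, 0.05 and 0.02. By complex the counts were 36 of 38, 8 of 8, 12 of 16 and 17 of 17, with medians of 0.08, 0.06, 0.07 and 0.07. None of the members passed (lowest adjusted p = 0.9997, edgeR), where 1 of all tested genes did (0.00661%). At an unadjusted p below 0.05 there were 2 members, Ndufs4 higher and Cox6b2 lower, where the share of all tested genes was 1.94%. On CPM the groups did not overlap for 3 members, Ndufs4 and Ndufs8 higher and Cox6b2 lower, and for 3.53% of all tested genes (1.51% higher, 2.02% lower). On TPM, a comparison added after the values were seen, they were Ndufs4, Cox6b2 and, in place of Ndufs8, Cox6c, a common subunit of complex IV, which was higher, and 3.28% of all tested genes were separate.

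The size of this small difference depended on scaling and on single libraries. On log2(TPM + 1) without WT 2, 64 of 79 members were higher with a median of 0.03, where all tested genes had −0.01 and 42.8% above 0. With total counts alone it was 71 of 79 and a median of 0.07. Without WT 3 as well as WT 2 it was 59 of 79 and a median of 0.03, and without cKO 4 as well as WT 2 it was 62 of 79 and 0.05. Leaving out WT 1 in addition gave 77 of 79 and 0.11.

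In WT 2 the members divided by gene length. Relative length is the number of estimated counts behind 1 TPM, scaled so that the median tested gene has 1; the members had a median of 0.129 and were thus short. For the 26 shortest members the median log2 difference of WT 2 from the mean of the other 7 was 0.41, and 21 of them were highest in WT 2. It was 0.14 for the 26 of middle length and −0.05 for the 26 longest, of which 9 were highest and 8 lowest in WT 2. Other genes in the same 3 ranges of length had medians of 0.69, 0.61 and 0.14, so short genes outside the respiratory chain were higher in WT 2 too. Of these other genes, 82.9%, 79.3% and 47.8% were highest in WT 2, and 24.2% of those in the longest range were lowest there.

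The largest positive differences in WT 2 belonged to Ndufb4 and Atp5md. Ndufb4, an accessory subunit of the membrane arm, stood at 43.6, 92.9, 50.1 and 43.6 CPM in WT and at 49.2, 52.9, 42.8 and 50.9 CPM in cKO, so that WT 2 was well above all others, which overlapped. Its copies Ndufb4b and Ndufb4c are near-identical in sequence, and the division of reads between them is uncertain. Ndufa4 stood at 204.4, 316.0, 195.1 and 186.1 CPM in WT and at 207.5, 208.5, 175.9 and 213.3 CPM in cKO, with WT 2 again alone at the top. Among long members, Atp5b had a log2 difference of −0.22 and Ndufs1 −0.26.

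Length went with library position in other libraries too. Across the 78 members, Spearman's rho of relative length with the log2 difference from the other 7 libraries was −0.51 in WT 2, 0.61 in WT 3, 0.37 in WT 4 and 0.64 in cKO 3, and between −0.28 and 0.13 in WT 1, cKO 1, cKO 2 and cKO 4. Over all 15098 tested genes rho was −0.30 in WT 2 and between −0.04 and 0.27 in the others. These are descriptions across genes of the same libraries, and genes are not replicates. WT 2 also had the marker sums given above, and the part of length or of tissue make-up in its values was not tested. With an offset for relative length in each library, added after the values were seen, 69 of 78 members were higher in cKO and their median was 0.09 on the log2 scale, where that of all tested genes was 0.03, and none passed (edgeR).

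TPM and CPM placed some short members differently. Ndufa3, among the shortest, was above the mean of the other 7 libraries in WT 2 on CPM by a log2 difference of 0.19. On TPM it stood at 1647, 1607, 1608 and 1805 in WT and at 1679, 1757, 1712 and 1772 in cKO, with WT 2 the lowest value. Of the 26 shortest members, 21 were highest in WT 2 on CPM and 16 of those on TPM as well, among them Atp5md and Atp5mpl. Of the 26 longest, 8 were lowest in WT 2 on CPM and 16 on TPM.

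**Figure D4:**
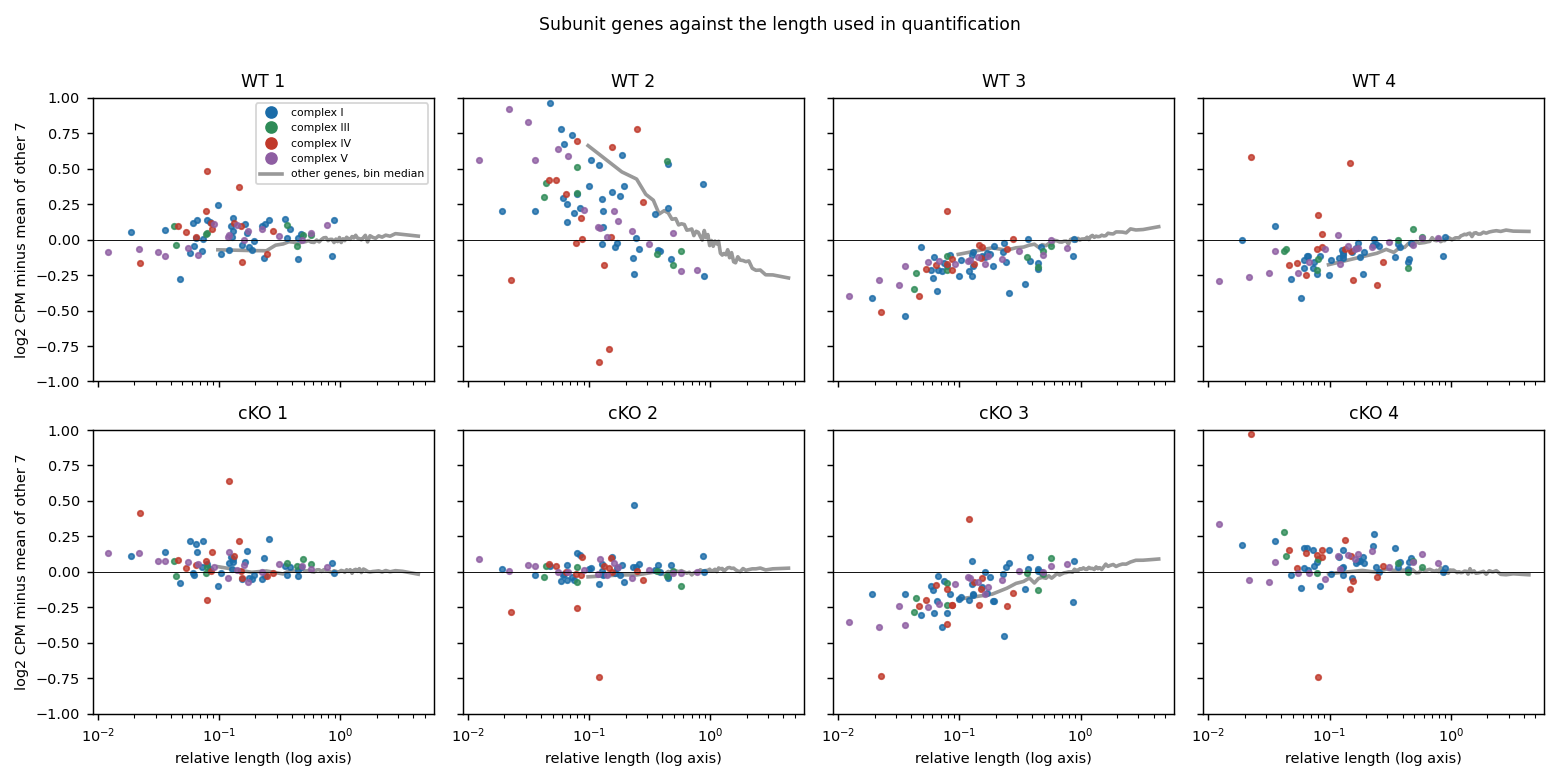
Log2 CPM of tested members, each minus its mean over the other 7 libraries against relative length on a log axis, in a panel per library, with the median of bins of other genes as a grey line. Short genes are high in WT 2 and low in WT 3 and cKO 3; 4 values of Cox6a2 lie outside the axis range.

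Cox6b2 was the member that separated the groups. This form of subunit 6b is known mainly from testis and sperm, and its gene lies at chromosome 7, 4751792 to 4753094 (GRCm38). It stood at 16.9, 18.3, 16.9 and 14.8 TPM in WT and at 10.8, 11.3, 11.8 and 7.49 TPM in cKO. All 4 cKO libraries lay below all 4 WT libraries, which was so for 1 of the 78 members and for 0.914% of all tested genes. In either direction the groups were separate for 1.52% of all tested genes, so 1 of 78 members does not exceed that share. Leaving out a library cannot make separate groups overlap, so Cox6b2 stays among the separate members by construction. Their number was 7 without WT 1 (6.64% of all tested genes), 3 without WT 2 (3.53%) or cKO 3 (2.97%), 2 without WT 4 (4.87%) or cKO 1 (3.28%), and 1 without WT 3 (2.86%), cKO 2 (3.03%) or cKO 4 (3.45%). The estimated counts were only 30, 39, 27 and 26 in WT and 20, 19, 18 and 14 in cKO. On the log2 scale the fold change was −0.74 ± 0.21 (SE; unadjusted p = 0.00776, adjusted p = 0.887, edgeR) and −0.63 ± 0.22 without WT 2, so the gene did not pass over all genes.

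The common form Cox6b1 did not follow it. It stood at 2401, 2663, 2366 and 2256 TPM in WT and at 2358, 2479, 2281 and 2330 TPM in cKO, with overlapping groups. Cox6b2 thus made up 0.321% to 0.712% of the Cox6b1 level in single libraries. The log2 ratio of Cox6b2 to Cox6b1 was −7.18 ± 0.05 in WT and −7.85 ± 0.30 in cKO (SD, n = 4 each), a difference of −0.67. An exact two-sided permutation test of the 70 assignments gave p = 0.0286, the smallest it can give, and 0.171 after adjustment over the 6 isoform pairs examined. Without WT 2 the difference was −0.67 as well. Leaving out a library cannot make separate ratios overlap. The same exact test over 35 assignments therefore gave its smallest p, 0.0286, by construction, and this adds no second test. It was 0.171 after adjustment over the 6 pairs. With or without WT 2, that is the lowest adjusted value possible when no other pair reaches the smallest p, so the adjusted test could not pass.

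The heart and skeletal muscle isoforms of complex IV were highest in the libraries with the most muscle transcripts. Cox6a2 stood at 1.90, 2.10, 1.90 and 10.6 TPM in WT and at 6.96, 2.62, 6.19 and 13.9 TPM in cKO. Cox7a1 stood at 41.3, 33.8, 41.7 and 74.8 TPM in WT and at 59.4, 41.0, 32.7 and 84.6 TPM in cKO. WT 4 and cKO 4 were the highest libraries of each gene in their group, and the groups overlapped. The 15 skeletal muscle markers include the myosin light chain Mylpf, muscle creatine kinase Ckm and Pvalb. They summed to 429, 378, 352 and 1468 TPM in WT and to 770, 484, 534 and 1432 TPM in cKO. None was at 0 in all libraries. Pvalb was the largest single part of the sum in each library and varied less than the sum. It stood at 337.67, 216.36, 270.21 and 361.7 TPM in WT and at 336.27, 290.7, 315.64 and 414.85 TPM in cKO. On log2 CPM all 15 markers were above their own mean of 8 in WT 4 and cKO 4. In cKO 1 this was so for 13, and in each other library for 1 to 3. The sums were highest in the same libraries, WT 4 and cKO 4, and the part of muscle tissue in these isoforms was not tested.

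Cox8b, the third muscle form, was less regular. It stood at 18.3, 9.54, 2.4 and 30.1 TPM in WT and at 34.5, 17.0, 27.1 and 17.1 TPM in cKO, from 1 to 18 estimated counts. Its highest library was cKO 1, and the groups overlapped. The log2 fold changes of Cox6a2 and Cox7a1 were 0.87 ± 0.68 and 0.25 ± 0.39 (SE; adjusted p = 0.887 for each, edgeR). The common forms ranged less, with Cox6a1 at 913 to 1054 TPM and Cox8a at 1073 to 1384 TPM, and muscle forms never exceeded 13.04% (Cox7a1), 2.69% (Cox8b) and 1.32% (Cox6a2) of the common form. Exact permutation tests of these 3 ratios gave p = 0.657, 0.257 and 0.257.

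**Figure D5:**
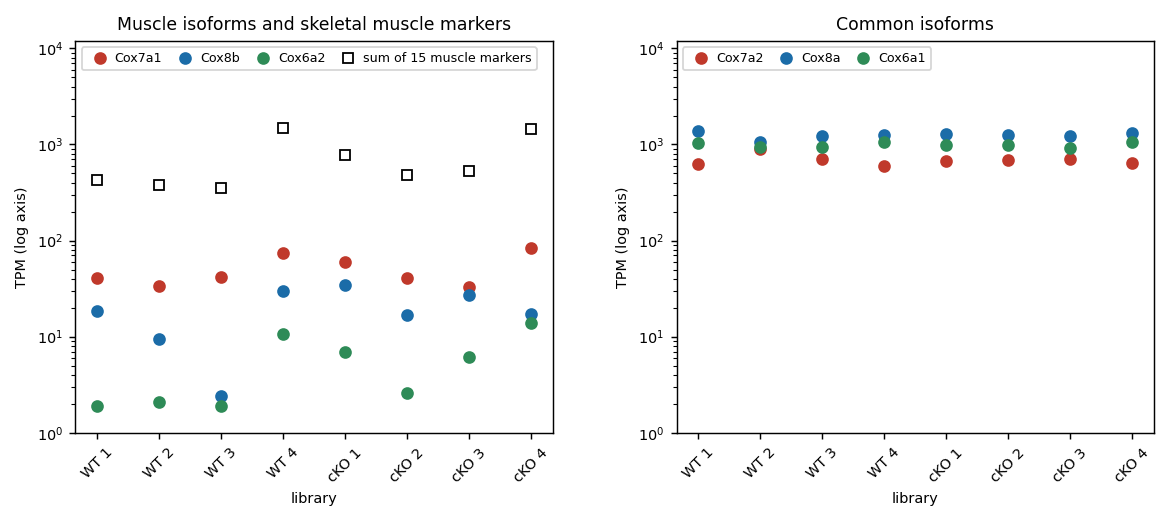
TPM of the muscle isoforms Cox7a1, Cox8b and Cox6a2 with the summed TPM of 15 skeletal muscle markers (left) and of their common counterparts (right) in each library, on a log axis. Cox7a1 and Cox6a2 are highest in WT 4 and cKO 4, as are the markers, while the common forms stay within a narrow band.

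The isoforms known from low oxygen and from vessel wall cells were scarce. Cox4i2, the lung and hypoxia form of subunit 4, stood at 5.06, 1.91, 4.06 and 5.92 TPM in WT and at 4.56, 4.03, 3.38 and 3.47 TPM in cKO. Ndufa4l2, a hypoxia-induced relative of Ndufa4, stood at 3.79, 3.14, 4.24 and 4.28 TPM in WT and at 4.41, 5.62, 3.18 and 4.86 TPM in cKO. WT 2 was the lowest library for each, and the groups overlapped. The 11 pericyte and smooth muscle markers summed to 202, 321, 263 and 229 TPM in WT and to 218, 215, 187 and 234 TPM in cKO, highest in WT 2, with none at 0 in all libraries. Single markers were divided: on CPM, WT 2 was the highest library for 6 of the 11 and the lowest for 2. On TPM, Abcc9 and Notch3 were lowest in WT 2, at 2.64 and 2.56. The log2 fold changes of Cox4i2 and Ndufa4l2 were −0.11 ± 0.32 and 0.21 ± 0.23 (SE). The exact permutation tests of their ratios to Cox4i1 and Ndufa4 gave p = 0.8 and 0.286. Without WT 2 the difference of cKO from WT in the log2 ratio was −0.40 for Cox4i2 to Cox4i1 (exact permutation p = 0.0857, 0.257 after adjustment over the 6 pairs) and 0.12 for Ndufa4l2 to Ndufa4 (exact permutation p = 0.571). Exons of 22 of the 81 members overlap those of another gene on the opposite strand in the annotation used (GENCODE M21), as with Ndufa4l2 and Shmt2, Cox6a2 and Itgad, Atp5md and Taf5, Ndufb11 and Rbm10, and Atp5a1 and Haus1. The sources used here do not say whether counting used strand, and values of these genes may hold reads of their partners.

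Genes that work with the subunits gave no calls either. A list of complex II and the electron carriers (11 genes) had 5 higher and 6 lower. It also holds Cyc1, cytochrome c1, a catalytic subunit of complex III that the symbol pattern missed, with a log2 fold change of 0.09 ± 0.06 (SE). The Krebs cycle list had 16 of 17 genes higher (median 0.07 on the log2 scale), and 14 of 17 (0.02) without WT 2; its lowest p belonged to Suclg1, a succinyl-CoA ligase chain, at 0.17 ± 0.10 (SE). Complex IV assembly factors were 6 of 23 higher with a median of −0.06, and 15 of 23 and 0.03 without WT 2. Cox10, which makes the heme A precursor, was at 0.21 ± 0.12 and Cox16 at −0.32 ± 0.24 (adjusted p = 0.887 for each, edgeR). Complex I assembly factors were 11 of 17 higher, with Ndufaf4 at 0.10 ± 0.06 (SE) and Ndufaf8 at −0.32 ± 0.20.

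Among the regulators, 12 of 16 were higher with a median of 0.05, and 8 of 16 and 0.01 without WT 2. Ppara, a nuclear receptor for fatty acids, had a log2 fold change of 0.27 ± 0.11 (SE; unadjusted p = 0.0358, adjusted p = 0.887, edgeR). Tfb1m, a methyltransferase of mitochondrial ribosomal RNA, had −0.43 ± 0.24, and −0.13 without WT 2. The glycolysis list was 11 of 17 higher, with lactate dehydrogenase Ldha at −0.44 ± 0.32 and at 0.02 without WT 2. Mitochondrial transport genes were 18 of 21 higher with a median of 0.05, and 14 of 21 and 0.03 without WT 2.

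Ribosomal protein genes, which are also short and abundant, turned with WT 2 as well. Of 83 tested cytosolic ribosomal protein genes, 1 was higher in cKO with all libraries (median −0.15) and 76 were higher without WT 2 (median 0.06). Of 78 mitochondrial ribosomal protein genes, 26 were higher with all libraries (median −0.03) and 63 without WT 2 (median 0.04). None of these genes passed in either fit (edgeR). The genes outside the respiratory chain most alike to the mean standardised profile of the members over 8 libraries were Mrps24, a mitochondrial ribosomal protein (Pearson r = 0.949), Rps28, a cytosolic ribosomal protein (0.946), and Rab4b, a GTPase of endosomes (0.945). Over the 7 libraries other than WT 2 the most alike were different genes, Mrpl33 (r = 0.994), Pcdhb7 (0.990) and Arl3 (0.984). Mrps24, Rps28 and Rab4b had 0.939, 0.955 and 0.931 there. Mrps24 stood at 15.2, 17.8, 12.7 and 13.1 CPM in WT and at 14.6, 14.4, 12.7 and 16.9 CPM in cKO, highest in WT 2 and lowest in WT 3 and cKO 3.

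RNA came from whole tissue, so fewer cells of a type and less RNA per cell cannot be told apart in any of these values. The labels do not say which animals or which of the 4 sequencing rounds the libraries came from, so p-values measure the spread between these libraries, and batch and library cannot be told apart.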

How the data were processed

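Per the labels' protocols, Trizol was used for extraction and an mRNA kit for library preparation. The authors deposited estimated counts per gene and TPM values, per the file headers. The submitters' processing notes list RSEM 1.3.1, Bowtie2 2.4.5 and HISAT2 2.2.1 and the build GRCm38 (mm10), without their roles. RSEM divides reads between similar genes by estimation, so values of near-identical copies are uncertain, and strand is not given in the sources used here. Columns headed Ctrl were matched to the WT samples of the same number. Other columns, 16 of single samples and 8 of the authors' means, were not used. Genes of mitochondrial DNA were not analysed here.

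Whole-number rounding of the deposited estimated counts preceded a test in edgeR 4.0.16 (R 4.3.3; filterByExpr, TMM, quasi-likelihood, group as the only term, Benjamini-Hochberg over all tested genes, threshold 0.05), and the fit was repeated without WT 2. CPM values use TMM-scaled totals, with a prior count of 2 on the log2 scale. Standard errors come from the fold change and its F statistic. The script was tested on simulated data. Alternatives were limma 3.58.1 (also on log2 of the deposited TPM values with a pseudocount of 1 or 0.1), DESeq2 1.42.0, other scalings, no filter, a replicate block and leaving out each library. Isoform ratios of TPM were tested by exact permutation, two-sided.

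The members and all lists were chosen with earlier results of these data known. Named are the 3 members of highest mean TPM per complex, the 8 members of lowest p per direction, isoform pairs, core subunits, members with separate groups, members removed by the filter and up to 3 genes of lowest p per further list. One gene is counted among the members and not reported singly here or drawn in the figures. Some members with large differences in WT 2 were named after their values were seen. Positions and promoters are from RefSeq GRCm38.p6 and exon overlaps from GENCODE M21.

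Replicate numbers were checked as pairs. Depth of 15522915 to 16482614 estimated counts per library leaves counting error small for common subunits and large for isoforms with few counts.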

Additional observations from a re-analysis of the deposited data

Results flagged for a closer look

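Of 106 groups of 4 libraries examined for a value far from the other 3, 12 were flagged, where chance flags about 1 in 20, and 6 of the 12 concerned WT 2. In WT 2, Ndufa4 stood at 316.0 CPM, Atp5md at 138.2 CPM, Atp5mpl at 129.8 CPM, Ndufb4 at 92.9 CPM, Ndufs8 at 88.7 CPM and Ndufb11 at 88.0 CPM, each well above the other 3 WT libraries. These 6 genes include Atp5md and Atp5mpl, described above as small membrane subunits of ATP synthase, and WT 2 also had the highest sum of nociceptor markers.

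In cKO 3, Ndufa4 at 175.9 CPM and Cox6b1 at 161.3 CPM lay below the other 3 cKO libraries, as did the summed TPM of complex I, at 16412. In cKO 4, Ndufs8 at 77.1 CPM lay above the other 3. In WT 4, Cox6a2 stood at 1.74 CPM and its log2 TPM ratio to Cox6a1 at −6.64, above the other 3 WT libraries, in the library with the highest sum of skeletal muscle markers.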

How the results depend on the processing

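No member passed the threshold under any of the 18 alternatives. For 42 named members 756 refitted values gave adjusted p from 0.631 to 0.9997 (edgeR, DESeq2 or limma), and 21 of the 42 never changed sign. Over all genes, 1 gene passed in DESeq2 (Lztfl1), 1 in limma on log2(TPM + 1) without a filter (Cst12) and 0 to 1 with a library left out (Capn11, without WT 2). With a library left out, 1 to 7 members had separate groups, and Cox6b2 is among them by construction. The median log2 fold change of the members ranged from −0.04 to 0.08 with a library left out and from −0.02 to 0.09 otherwise.

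Signs of small differences turned as follows. On TPM with a pseudocount of 1, with or without a filter, or of 0.1, Ndufb8 had a log2 fold change of 0.0097, Uqcrb 0.0061 and Ndufs8 0.025. With total counts alone, which moved the median of all tested genes to −0.03, Cox7c had −0.029, Cox8a −0.0041 and Ndufv2 −0.0096. With the length offset, where that median was 0.03, Ndufb8 had 0.072, Uqcrh 0.015, Uqcr10 0.088, Uqcrb 0.093, Cox6b1 0.067, Atp5mpl 0.044, Cox6a1 0.051, Cox7a2 0.029 and Ndufs8 0.081. With a library left out, values ranged from −0.24 to 0.046 for Ndufa4, −0.033 to 0.14 for Ndufa3, −0.061 to 0.037 for Ndufb8, −0.35 to 0.098 for Ndufb4, −0.027 to 0.084 for Ndufs1, −0.059 to 0.078 for Ndufs8 and −0.021 to 0.098 for Ndufv2. In complex III they ranged from −0.19 to 0.039 for Uqcrh, −0.11 to 0.087 for Uqcr10 and −0.085 to 0.083 for Uqcrb. In complex IV they ranged from −0.097 to 0.15 for Cox7c, −0.13 to 0.071 for Cox6b1, −0.29 to 0.076 for Cox7b, −0.32 to 0.071 for Cox4i2, −0.085 to 0.50 for Cox7a1, −0.10 to 0.017 for Cox6a1, −0.20 to 0.11 for Cox7a2 and −0.021 to 0.090 for Cox8a. In complex V they ranged from −0.31 to 0.12 for Atp5md, −0.25 to 0.15 for Atp5mpl and −0.028 to 0.29 for Atp5k. The log2 ratio difference ranged from −0.40 to 0.10 for Cox4i2 to Cox4i1 and from −0.070 to 0.51 for Cox7a1 to Cox7a2. The cause was not tested.

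Libraries with the same replicate number correlated at 0.01, 0.04, −0.04 and 0.25, and WT 4 alone correlated best with its own number, so the number was not taken as a pairing. With a replicate block 0 genes passed, 213 had an unadjusted p below 0.05, and the median of the members was 0.02. Depth limits the isoforms: Cox6b2 had 14 to 39 estimated counts and Cox6a2 5 to 39.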

Other observations

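Besides Cyc1, the subunits that the symbol pattern missed include Ndufab1 of complex I, the mitochondrial acyl carrier protein, with a log2 fold change of −0.03 and 0.03 without WT 2. The ATP synthase assembly and inhibitor list had 3 of 5 tested genes higher, with the inhibitor Atpif1 at −0.21 ± 0.19 (SE) and at 0.04 without WT 2. Complex III assembly factors were 4 of 6 higher. The hypoxia response list had 7 of 12 genes higher, with Ankrd37, a target of the hypoxia factor, at −0.35 ± 0.18. None of these genes passed (edgeR).

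Cell type lists without a place in the comparisons above gave these counts. Fibroblast markers were 0 of 12 higher with all libraries and 4 of 12 without WT 2, Schwann cell markers 0 of 10 and 2 of 10, and nociceptor markers 0 of 15 and 10 of 15. Astrocyte markers were 8 of 10 and 2 of 10 higher, oligodendrocyte markers 12 of 12 and 9 of 12, and spinal cord neuron markers 12 of 13 and 4 of 13. Skeletal muscle markers were 12 of 15 and 10 of 15 higher, pericyte and smooth muscle markers 3 of 11 and 2 of 11, microglia and macrophage markers 5 of 11 and 8 of 11, and brown fat markers 2 of 4 and 2 of 4. None of these genes passed in either fit (edgeR).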
